A study of Mus musculus with 8 samples.

Results

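The response of mouse neurosphere cells to trichostatin A (TSA), a histone deacetylase inhibitor, was compared between 2 independent culture experiments, and the comparison used all 8 arrays of the series, 4 from each experiment. For each probe set, a set of short oligonucleotides that reads 1 transcript, the TSA response of an experiment was the mean log2 signal of its TSA and AzaC/TSA arrays minus that of its untreated and AzaC arrays. The response in experiment 1 was then subtracted from the response in experiment 2, so a positive difference means a change that was more upward, or less downward, in experiment 2. Neurospheres are floating cultures of neural stem and progenitor cells. Here they were grown from embryonic day 14.5 mouse forebrains, each isolated separately, and all cells, the untreated ones included, carried a bcl2 transgene, whose product blocks apoptosis. After dissociation the cells of each experiment were split into 4 groups: untreated, 500 nM AzaC (5-aza-2'-deoxycytidine), 150 nM TSA, or both compounds (AzaC/TSA), each for 2 days, with 1 array per group and experiment. The labels do not say how many forebrains went into an experiment or which promoter drove the transgene.

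Histone deacetylases remove acetyl groups from histone tails, and inhibitors such as TSA raise histone acetylation and change transcription in both directions. In dividing cells they are known to lower cell-cycle genes, and in neural progenitors to raise neuronal genes. AzaC is incorporated into DNA and traps DNA methyltransferases, so that methylation is lost as cells divide.

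The arrays were alike in brightness, with median signals of 59.2 to 72.7, and 7987 probe sets (64.0% of those on the array) were bright enough to test. The progenitor markers Nes, Sox2 and Fabp7 were expressed on every array, with signals of 1049 to 3003 for Nes and of 1062.9 to 10920.1 for Fabp7, whereas Ptprc (leukocytes) and Aif1 (microglia) never exceeded the floor signal of 20, below which values were treated as equal. Vim, another progenitor gene, read only 21.3 to 56.0. Other markers of non-neural cells did exceed the floor. Cd34 (blood cells) read up to 95, Pecam1 (endothelium) up to 97.3 and Col1a1 (fibroblasts) 51.2 to 129. Cd68, of the microglia and macrophage list, read up to 474.1. Low Ptprc and Aif1 thus do not show that the cultures lacked such cells. The 5' to 3' signal ratio of actin, a sign of RNA integrity, was 0.428 and 0.470 without TSA and 0.334 and 0.291 with TSA in experiment 1, against 0.334 and 0.397 without and 0.379 and 0.390 with TSA in experiment 2. It was thus lower in the TSA-exposed arrays of experiment 1 only, and its part in the differences below was not tested. The 2 arrays behind each mean differ in AzaC and come from 1 experiment, so they are no replicate cultures, and every p-value measures the spread between these arrays.

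In a fit that shares 1 spread over all 8 arrays, TSA changed a similar number of probe sets in both experiments. With each experiment fitted on its own arrays alone, experiment 1 had more calls than experiment 2, as the closing section gives. The counts that follow are from the shared fit. In experiment 1, 1255 of 7987 probe sets (15.7%) passed limma's test at an adjusted p of 0.05, of which 640 rose (8.01%) and 615 fell (7.7%). In experiment 2 the count was 1310 (16.4%), with 664 up (8.31%) and 646 down (8.09%). Of these, 699 (8.75% of all tested) passed in both experiments in the same direction, 329 upward (4.12%) and 370 downward (4.63%), which was 55.7% of the calls of experiment 1 and 53.4% of those of experiment 2. The counts for experiment 1 and for shared calls were lowest without its TSA array, at 277 and 208, and the count for experiment 2 was lowest without its own TSA array, at 507. Without another array of the same experiment they were 316 (AzaC/TSA), 485 (AzaC) and 534 (untreated) for experiment 1 and 516 (untreated), 720 (AzaC/TSA) and 962 (AzaC) for experiment 2. Another 2 probe sets, for A2m and Myo10, passed in both in opposite directions. Over all tested probe sets the responses correlated with a Pearson r of 0.66 and a Spearman rho of 0.58 (probe sets, unlike replicates, are not independent), and 70.4% had the same sign. Centring each array on its median, in place of the authors' scaling, moved the median difference of all tested probe sets from 0.03 to -0.17, and the share of rises among the calls from 51.0% to 64.0% in experiment 1 and from 50.7% to 44.7% in experiment 2.

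**Figure D1:**
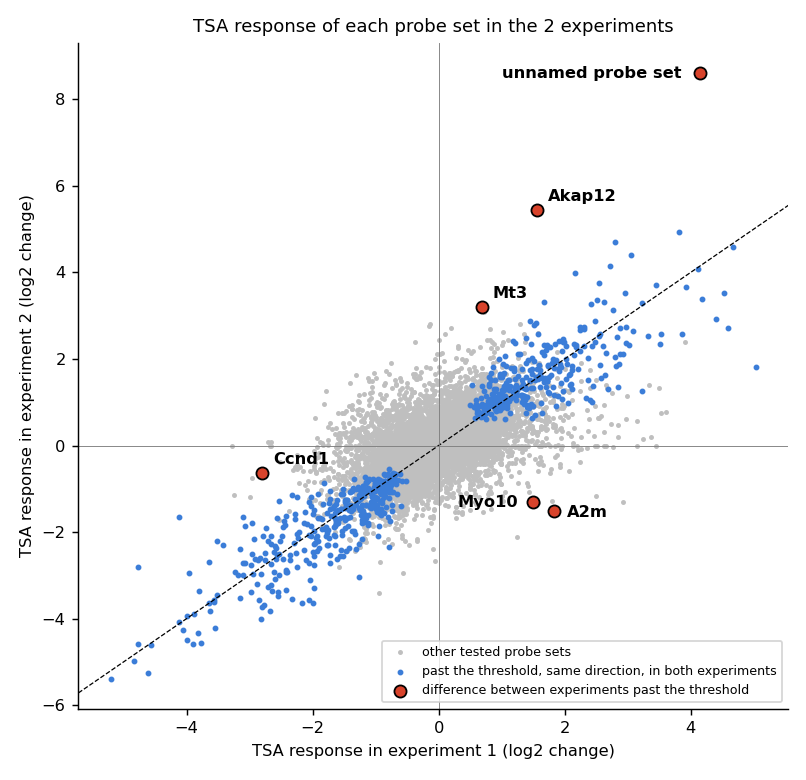
Log2 TSA response of each of 7987 tested probe sets in experiment 1 (horizontal) and experiment 2 (vertical), with blue points for the 699 that passed in both in the same direction, red points for the 6 whose difference passed, and a dashed line of equal response. Blue points follow the line at both ends, Mt3, Akap12 and an unnamed probe set lie above it on the upward side, Ccnd1 lies above it on the downward side, and A2m and Myo10 lie in the quadrant of opposite responses.

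The strongest shared falls were in genes that cells need to divide. Cdc20 helps switch on the ubiquitin ligase that lets sister chromatids part. Its signal was 1728.1 (untreated) and 2234.9 (AzaC) without TSA in experiment 1 and 79.0 (TSA) and 87.8 (AzaC/TSA) with it, and in experiment 2 it was 2726.2 and 2299.9 without and 96 and 108.7 with TSA. The groups of both experiments were far apart and lay at nearly the same levels. Cdc20 fell by 4.56 in experiment 1 and by 4.62 in experiment 2 on the log2 scale, and the difference of -0.05 had a 95% interval from -0.74 to 0.63. Mki67, the Ki-67 proliferation antigen, fell by at least 5.21 and 5.38, since TSA-exposed arrays were under the floor or close to it. Kif20a and Kif11 (spindle kinesins), Top2a (topoisomerase II), Aurka and Aurkb (Aurora kinases), Plk4 (centriole duplication), Pclaf (a partner of the replication clamp) and Cdk1, the mitotic kinase, completed the 10 largest shared falls, with log2 responses from -3.88 to -5.25, most of them lower bounds of the size because TSA-exposed arrays were under the floor.

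The largest shared rises held secreted and neuroendocrine proteins. In bulk cultures a change in the share of a cell type and a change in RNA per cell cannot be told apart. Clu encodes clusterin, a secreted chaperone. Its signal was 79.6 (untreated) and 71.8 (AzaC) without TSA and 1638.2 (TSA) and 1055.6 (AzaC/TSA) with it in experiment 1, and 74.8, 97.9, 2048.8 and 1021.8 in the same order in experiment 2. Clu rose by 4.12 and 4.08 on the log2 scale, a difference of -0.04 (95% interval -1.05 to 0.97), and its second probe set rose by 4.67 and 4.58. Chgb and Scg2, granins of secretory vesicles, and Resp18, an endocrine secretory protein, rose in both experiments, as did Snap25 (synaptic vesicle fusion), Igf2 (a growth factor), Fos (an immediate early transcription factor), Anxa2 (a membrane-binding annexin), Akr1b8 (an aldo-keto reductase) and Rnase4 (a secreted ribonuclease). For Resp18 the responses were 3.22 and 3.29, for Fos 3.45 and 3.70, and for Igf2 4.40 and 2.92. The adjusted p of the difference in limma was 0.42 for Igf2 and 0.45 or more for the other 9.

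The strength of the response was close in both experiments when probe sets were chosen by their mean response, which is independent of the difference. Of 2258 probe sets that passed for the mean of both experiments (28.3%), 2236 had the same sign in both. The 1137 that rose (14.2%) had a median response of 0.96 in experiment 1 and 0.98 in experiment 2, and 604 (53.1%) were larger in experiment 2. The 1121 that fell (14%) had medians of -0.93 and -1.03, and 627 (55.9%) fell further in experiment 2. These shares followed the scaling: with median centring they were 38.2% of the rises and 69.4% of the falls, so which experiment responded more strongly is not settled by these values.

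Passing in 1 experiment alone was not by itself a difference between them. The 554 probe sets that passed in experiment 1 and not in experiment 2 had the same sign in experiment 2 in 469 cases (84.7%), with a median size of 1.30 in experiment 1 and 0.48 in experiment 2. Of the 609 that passed in experiment 2 only, 543 (89.2%) had the same sign in experiment 1, with medians of 1.16 and 0.52. The difference itself passed for 1 of the 554 and 0 of the 609 in limma, at an unadjusted p under 0.01 for 83 and 74. Precision limits this comparison: the median standard error of a difference was 0.46 on the log2 scale, with a 95% half-width of 1.03, so that the interval lay within a 2-fold difference for 258 of the 699 shared probe sets (36.9%) and for 1549 of all 7987 (19.4%).

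Only 6 probe sets (0.0751%) passed for the difference at an adjusted p of 0.05, 4 with a higher (0.0501%) and 2 with a lower (0.025%) response in experiment 2. At an unadjusted p under 0.05 there were 810 (10.1%). The call count rested on single arrays: it was 0 without the TSA array or without the AzaC/TSA array of experiment 1 (639 and 519 at an unadjusted p under 0.05 in limma), 1 without either such array of experiment 2, and 3 without either untreated array. The 6 held A2m and Myo10, which responded in opposite directions, Mt3, Akap12 and a probe set without a gene name, which rose in both experiments but further in experiment 2, and Ccnd1, which passed as a fall in experiment 1 and not in experiment 2.

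A2m encodes alpha-2-macroglobulin, a secreted protease inhibitor. In experiment 1 its signal was 464.7 in untreated and 426.2 in AzaC cells, and 1548.0 in TSA and 1633.2 in AzaC/TSA cells. In experiment 2 the same groups read 468.1, 506.0, 183.1 and 158.1. Without TSA the experiments lay 1.09-fold apart (adjusted p 0.785), and with TSA 9.35-fold. A2m rose 3.57-fold in experiment 1 and fell 2.86-fold in experiment 2 (log2 1.84 and -1.52), and the difference of -3.35 (SE 0.28) had an adjusted p of 0.00399 in limma. It was -3.09 in the arrays without AzaC and -3.62 in those with it. A2m passed in 6 of the 8 fits that left out 1 array, and missed without the TSA (adjusted p 0.125) or the AzaC/TSA array (0.251) of experiment 1.

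Myo10 encodes an unconventional myosin of filopodia. Its signal was 458.7 (untreated), 800.4 (AzaC), 1116.8 (TSA) and 2614.2 (AzaC/TSA) in experiment 1. In experiment 2 it was 839.9, 1165.3, 296.2 and 544.6. TSA-exposed arrays were above the TSA-free ones in experiment 1 and below them in experiment 2. Myo10 rose 2.82-fold in experiment 1 and fell 2.46-fold in experiment 2, a log2 difference of -2.80 (SE 0.30, adjusted p 0.0106), with -2.79 without AzaC and -2.81 with AzaC. It passed without the AzaC array of experiment 2, and without any other 1 array the adjusted p lay between 0.0518 and 0.296.

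Akap12, a scaffold that anchors protein kinases at the membrane, had the largest difference of a named gene among the 6. Its signal in experiment 1 was 146.0 (untreated), 153.3 (AzaC), 539.6 (TSA) and 363.8 (AzaC/TSA). In experiment 2 it was 31.1 and 20.9 without TSA, close to the floor, and 1598.7 and 760.8 with TSA. Experiment 2 had the lower readings without TSA and the higher ones with it. Akap12 rose 2.96-fold and 43.3-fold (log2 1.57 and 5.43), a difference of 3.87 (SE 0.43, adjusted p 0.0106). TSA-free arrays differed by 5.87-fold between experiments (adjusted p 0.0039), and TSA-exposed arrays by 2.49-fold (adjusted p 0.0561). The difference passed without the untreated array of experiment 1 or the AzaC array of experiment 2, and without another array the adjusted p lay between 0.0518 and 0.333.

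The probe set 97519_at, to which the array annotation used here gives no gene symbol, had the largest response of all. It read 69.2 (untreated), 34.9 (AzaC), 1425.3 (TSA) and 533.7 (AzaC/TSA) in experiment 1. In experiment 2 it read 6.7, 23.4, 11743.1 and 6070.8, so the TSA-exposed arrays were among the brighter ones of the whole data set while an untreated array lay under the floor. It rose by 4.15 in experiment 1 and by at least 8.61 in experiment 2 on the log2 scale, a difference of at least 4.46 (adjusted p 0.0106). It passed without the untreated or the AzaC array of experiment 2, and without another array the adjusted p lay between 0.0518 and 0.333.

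Ccnd1 encodes cyclin D1, which drives entry into the cell cycle with its kinase partners. Its signal in experiment 1 was 3917.0 (untreated), 4530.3 (AzaC), 517.2 (TSA) and 706.8 (AzaC/TSA). In experiment 2 it was 2821.4, 3101.6, 1374.9 and 2597.0, so the groups did not overlap in either experiment but lay close in experiment 2. Ccnd1 fell 6.97-fold in experiment 1, the response in experiment 2 was -0.65 on the log2 scale (adjusted p 0.0627), and the difference was 2.15 (SE 0.29, adjusted p 0.0441). A second, dimmer Ccnd1 probe set gave -2.09 and -1.02, a difference of 1.07 that did not pass (adjusted p 0.756). The first probe set passed in none of the 8 fits that left out 1 array, with adjusted p values of 0.0708 to 0.678. Ccnd2, another D cyclin, rose by 1.44 and 0.87.

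**Figure D2:**
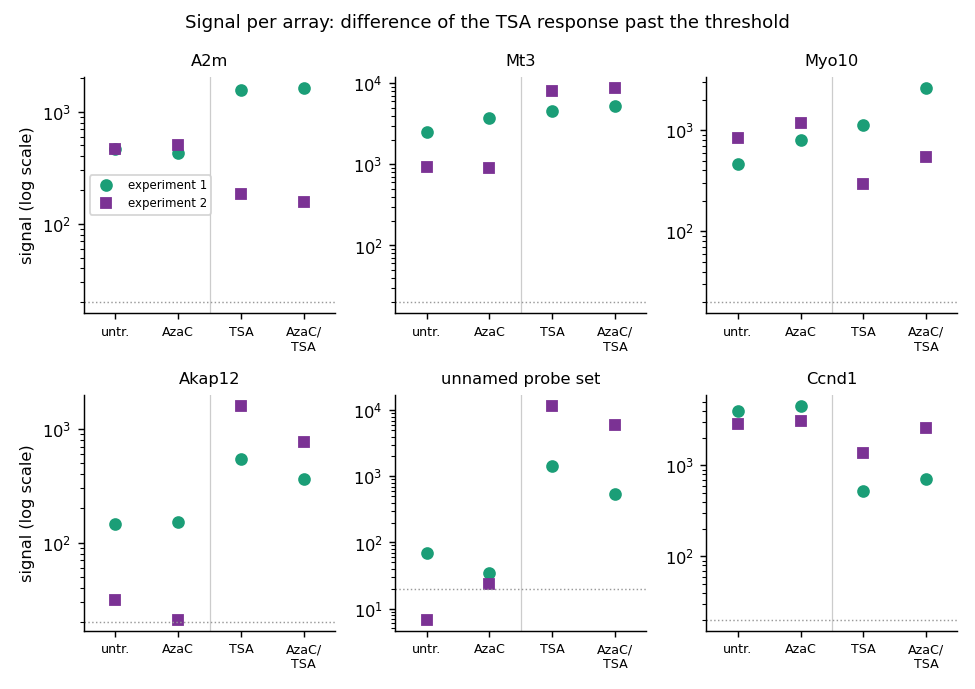
Signal on a log axis for each of the 8 arrays, by group, of the 6 probe sets whose TSA response differed between experiments, with green circles for experiment 1, purple squares for experiment 2 and a dotted line at the floor signal of 20. A2m and Myo10 part in opposite directions right of the grey line that separates TSA-free from TSA-exposed arrays, and Akap12, Mt3 and the unnamed probe set lie lower without TSA and higher with TSA in experiment 2.

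Mt3 belongs to the metallothioneins, small cysteine-rich proteins that bind zinc and copper, and is the member typical of brain. Mt1 and Mt2 are the widely expressed members, whose genes respond to metals through the factor MTF-1. The 3 genes lie next to each other on chromosome 8. They are shown because the difference between experiments passed for Mt3 and not for Mt1 or Mt2. The 250 bases before the RefSeq start of each gene (plus strand, GRCm38.p6) follow 5' to 3', at chr8:94178839-94179088 for Mt1, chr8:94172368-94172617 for Mt2 and chr8:94152357-94152606 for Mt3. Capitals mark matches to the core of the metal response element, TGCACNC or TGCGCNC on either strand.
Mt1: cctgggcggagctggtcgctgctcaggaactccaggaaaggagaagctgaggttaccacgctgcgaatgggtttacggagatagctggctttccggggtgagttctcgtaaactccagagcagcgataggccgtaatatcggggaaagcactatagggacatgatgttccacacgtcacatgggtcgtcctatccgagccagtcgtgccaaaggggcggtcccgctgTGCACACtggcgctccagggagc
Mt2: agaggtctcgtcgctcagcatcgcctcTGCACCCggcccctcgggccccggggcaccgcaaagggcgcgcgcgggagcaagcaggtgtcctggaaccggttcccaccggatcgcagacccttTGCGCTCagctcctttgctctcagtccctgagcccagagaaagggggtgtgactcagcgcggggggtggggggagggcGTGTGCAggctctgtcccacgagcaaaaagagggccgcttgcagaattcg
Mt3: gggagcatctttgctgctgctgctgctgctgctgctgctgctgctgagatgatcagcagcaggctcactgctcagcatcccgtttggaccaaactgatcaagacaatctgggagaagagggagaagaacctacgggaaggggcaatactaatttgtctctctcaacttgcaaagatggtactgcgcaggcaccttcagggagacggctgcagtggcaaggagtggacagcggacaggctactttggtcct
The Mt1 window held 1 core, the Mt2 window 3 and the Mt3 window 0, with no overlapping matches, while 21.4% of 32851 RefSeq windows of the same length held at least 1 and 1.26% at least 3. A match of letters is not a bound site, and its absence from this window says nothing of the factor. Bases after the RefSeq start were not searched, so these counts do not describe the whole promoter of any of the 3 genes.

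Mt3 had a signal of 2508.9 (untreated), 3704.3 (AzaC), 4586.8 (TSA) and 5242.2 (AzaC/TSA) in experiment 1. In experiment 2 it was 922.6, 910.0, 7981.6 and 8787.1, the TSA-free arrays lying lowest and the TSA-exposed arrays highest of all 8. Mt3 rose 1.61-fold in experiment 1 and 9.14-fold in experiment 2 (log2 0.69 and 3.19), a difference of 2.51 (SE 0.25, adjusted p 0.00938). TSA-free arrays were 3.33-fold lower in experiment 2 (adjusted p 0.00323), and TSA-exposed arrays were 1.71-fold higher, which did not pass (adjusted p 0.0542). The difference missed the threshold without the TSA or the AzaC/TSA array of either experiment (adjusted p 0.0657 to 0.296) and passed without any 1 of the other 4 arrays. Mt1 read 5001.5, 5219.1, 21871.5 and 18497.3 in experiment 1 and 2024.9, 3496.7, 17252.8 and 12381.3 in experiment 2, in the same order of groups. It rose by 1.98 and 2.46, and Mt2 rose by 2.31 and 2.74. TSA-free arrays were lower in experiment 2 for these genes too, by 1.92-fold for Mt1 and 2.20-fold for Mt2. Neither passed (adjusted p 0.102 and 0.0794 in limma). The differences of Mt1 and Mt2, 0.48 (95% interval -0.35 to 1.31) and 0.43 (-0.48 to 1.34), lay below that of Mt3, and no test compared the genes with each other. In the arrays without AzaC they were 0.96 and 0.85, and in those with AzaC -0.0013 and 0.01.

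At an unadjusted p under 0.01, which does not pass adjustment, 226 probe sets (2.83%) differed, 117 with a higher (1.46%) and 109 with a lower (1.36%) response in experiment 2, for 201 named genes. Of these, 129 had a response past the threshold in 1 experiment and under 1.5-fold in the other (68 in experiment 1, 61 in experiment 2). Opposite responses of at least 1.5-fold each were found for 40, of which 17 were upward in experiment 1 and 23 upward in experiment 2. Another 27 passed in both experiments in the same direction, 10 with the larger response in experiment 1 and 17 in experiment 2, and 30 fell in none of these classes. The rule for these classes used the same values, so the counts only describe. The genes named next for a response in 1 experiment alone, opposite responses or a larger change in 1 experiment are of this kind. Genes named later with the gene lists need not be. Outside the 6 probe sets above, no difference passed adjustment in the main fit.

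**Figure D3:**
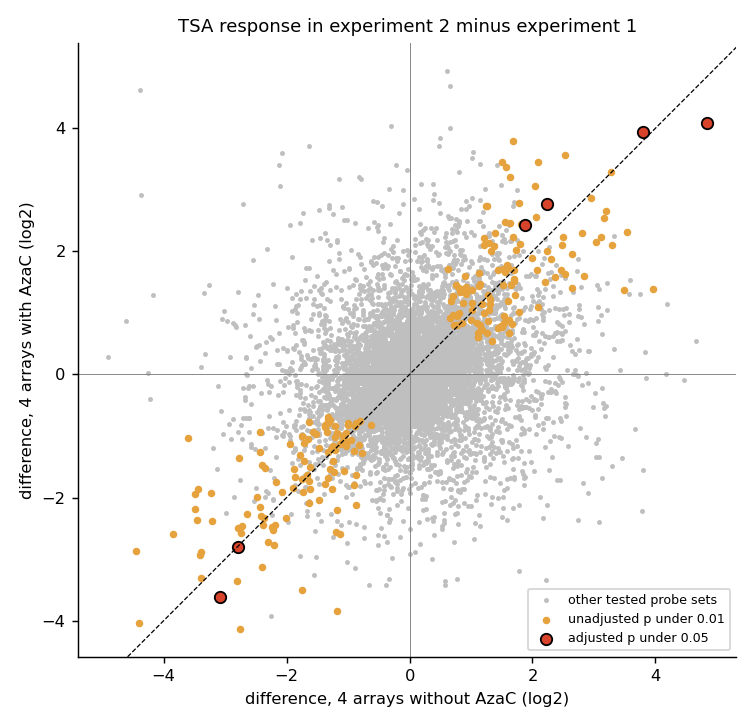
Difference of the log2 TSA response (experiment 2 minus experiment 1) computed from the 4 arrays without AzaC (horizontal) and from the 4 arrays with AzaC (vertical), which share no array, for 7987 probe sets. The 6 red points (adjusted p under 0.05) lie near the dashed line of equality, the 226 points under an unadjusted p of 0.01, red ones included, lie in the same-sign quadrants by their choice, and over all probe sets 60.1% had the same sign (Pearson r 0.25).

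Among genes with a response in experiment 2 alone, Tnc, a matrix glycoprotein of germinal zones, had signals of 1198.1 (untreated), 1211.2 (AzaC), 1098.4 (TSA) and 1547.9 (AzaC/TSA) in experiment 1 and of 1030.9, 1194.3, 3118.5 and 3725.0 in experiment 2. The arrays of experiment 1 overlapped, and those of experiment 2 did not. Tnc rose by 1.62 in experiment 2 against 0.11 in experiment 1 (a 2.84-fold difference, adjusted p 0.104), and its second probe set gave 1.54 against -0.34. Hbegf, a growth factor that binds the EGF receptor, rose by 2.14 in experiment 2 and stood at 0.06 in experiment 1. H1f2, a linker histone, rose by 1.70 and stood at 0.09, and Car2, a carbonic anhydrase, rose by 1.39 and stood at -0.10. For both, the TSA-free arrays were lower in experiment 2, by 2.64-fold for H1f2 and 2.17-fold for Car2 (adjusted p 0.012 each in limma). Rtn1, a reticulon of neuronal endoplasmic reticulum, fell by 1.00 in experiment 2. Its response in experiment 1 was upward, at 0.50, and did not pass (adjusted p 0.0874 in limma). It was 0.31 without and 0.70 with AzaC. The TSA-free arrays of Rtn1 were 1.91-fold higher in experiment 2 (adjusted p 0.0299 in limma).

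Among genes with a response in experiment 1 alone, Nsg2, a neuronal endosomal protein, had signals of 38.4 (untreated), 43.7 (AzaC), 273.4 (TSA) and 317.8 (AzaC/TSA) in experiment 1 and of 149.0, 140.5, 153.5 and 181.3 in experiment 2. The arrays of experiment 2 lay between the low and the high arrays of experiment 1. Nsg2 rose by 2.85 in experiment 1 and stood at 0.21 in experiment 2 (difference -2.64, adjusted p 0.0951). Dlk1 and Meg3, an imprinted pair of neighbours that encode a Notch-like membrane protein and a long noncoding RNA expressed from opposite parental copies, both belonged here. Dlk1 read 112.1, 83.6, 382.5 and 358.0 in experiment 1 and 66.8, 71.9, 82.3 and 75.1 in experiment 2, in the order untreated, AzaC, TSA, AzaC/TSA. Dlk1 rose by 1.93 in experiment 1 and stood at 0.18 in experiment 2 (adjusted p of the difference 0.262). The brighter of the 2 Meg3 probe sets read 211.1 and 148.5 in the TSA-exposed arrays of experiment 1 and was under the floor on the other 6 arrays. The second read 134.3 and 113.3 in those arrays, 29.5 and 20.7 in the TSA-exposed arrays of experiment 2, just above the floor, and was under it on the 4 TSA-free arrays. In experiment 1 Meg3 rose by at least 3.15 on the brighter and at least 2.62 on the second probe set, and in experiment 2 the second stood at 0.30 or more. The difference on floored values was -3.15 (adjusted p 0.211 in limma) and -2.32 (0.349). Neither is a bound, because arrays of both experiments were under the floor, and the brighter probe set gave no measured response in experiment 2. Nid1, a basement membrane protein, likewise read 134.4 and 119.2 in the TSA-exposed arrays of experiment 1 and was under the floor elsewhere. Its response in experiment 2 was thus not measured.

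Opposite responses that did not pass adjustment included Sfrp4, a secreted Wnt antagonist, with signals of 10.8 (untreated), 15 (AzaC), 113.3 (TSA) and 203.4 (AzaC/TSA) in experiment 1 and of 75.2, 78.6, 12.4 and 48.5 in experiment 2. Its difference was at least 4.23 log2 units in size, with a lower response in experiment 2 (adjusted p 0.0951). Shh, the hedgehog morphogen, and Smoc1, a secreted matrix protein, also had upward values in experiment 1 and downward ones in experiment 2, at 1.80 and -1.29 for Smoc1. Acy3, an aminoacylase, had -0.78 and 1.64, and Lmo2, a transcriptional cofactor, -1.11 and 1.49, though a second Lmo2 probe set gave 0.29 and 1.72. Sfrp4 and Shh were dim, with 3 arrays each under the floor, whereas Smoc1, Acy3 and Lmo2 had 0. Of the 226 probe sets, 43 had at least 1 array under the floor.

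Genes that passed in both experiments with a larger change in 1 of them included Gstp1, a glutathione transferase, which rose by 1.67 in experiment 1 and by 3.33 in experiment 2 (difference 1.65, adjusted p 0.124). Txnip, an inhibitor of thioredoxin that restrains glucose uptake, rose by 4.59 in experiment 1 and by 2.72 in experiment 2, with TSA-exposed signals of 2135.5 and 1780.5 against 1033.0 and 408.9 and TSA-free signals of 66.4 to 105.8. Its difference of -1.87 had an adjusted p of 0.211, and a second, dim Txnip probe set gave -0.39 and 0.37. Ahcy, which hydrolyses S-adenosylhomocysteine, fell by 1.99 and 3.65 on its brightest probe set, but the other 2 differed by -0.54 and 0.49. Tfdp1, the partner of E2F factors, fell by 0.79 and 2.35, and Ptprz1, a receptor phosphatase of radial glia, by 1.26 and 3.03, with a second probe set at -0.69 and -0.73 and another at -0.56 and -2.94.

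MHC class I heavy chains pair with B2m to present peptides, and some of their probe sets differed between experiments in the cultures without TSA. H2-K2 read 22.6 (untreated), 32.5 (AzaC), 889.1 (TSA) and 892.9 (AzaC/TSA) in experiment 1 and 753.0, 291.1, 2062.4 and 1327.8 in experiment 2. The TSA-free arrays of experiment 1 lay near the floor. In experiment 2 the untreated array, at 753.0, approached the TSA-exposed level of experiment 1, while the AzaC array, at 291.1, stayed well below it. H2-K2 rose by 5.04 and 1.82 (difference -3.22, adjusted p 0.105). That difference passed in only 1 of 20 alternatives, the fit without the AzaC array of experiment 2, which leaves a lone array behind that mean. H2-Q4 rose by 3.60 in experiment 1 and stood at 0.77 in experiment 2, H2-D1 rose by 3.22 and 1.25 (differences of -0.71 and -0.77 on its other 2 probe sets, against -1.97 here), and B2m rose by 1.48 and stood at 0.38. In the TSA-free arrays, experiment 2 was 17.3-fold higher for H2-K2 (adjusted p 0.00275), 6.59-fold for H2-D1 (0.00326), 5.36-fold for H2-Q4 (0.0159) and 3.90-fold for B2m (0.00326). With TSA the 4 lay between 1.86-fold higher and 1.34-fold lower in experiment 2, and none passed. In that comparison without TSA 195 of 7987 probe sets passed (2.44%), and with TSA 219 (2.74%). The names of the heavy-chain probe sets mark them as shared by a gene family, so related class I transcripts cannot be told apart, and H2-M3, a divergent member, had the reverse order with 0.77 and a rise of 2.43. On the fixed list of class I and peptide-loading genes, which did not hold H2-K2 or H2-Q4, 3 of 11 tested genes rose in each experiment (27.3%, against 8.78% and 8.72% of all tested genes), 2 of them in both. For the difference, 4 of the 11 were under an unadjusted p of 0.05 (36.4%, against 10.5% of all tested genes), 1 with a higher and 3 with a lower response in experiment 2. In the TSA-free arrays 3 of the 11 passed as higher in experiment 2 (27.3%, against 2.65% of all tested genes in either direction), B2m, H2-D1 and the peptide transporter subunit Tap1, with a median of 0.29 over the list, while H2-M3 was 2.78-fold lower there (adjusted p 0.055). With TSA 0 of the 11 passed in limma, and 3 were under an unadjusted p of 0.05.

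**Figure D4:**
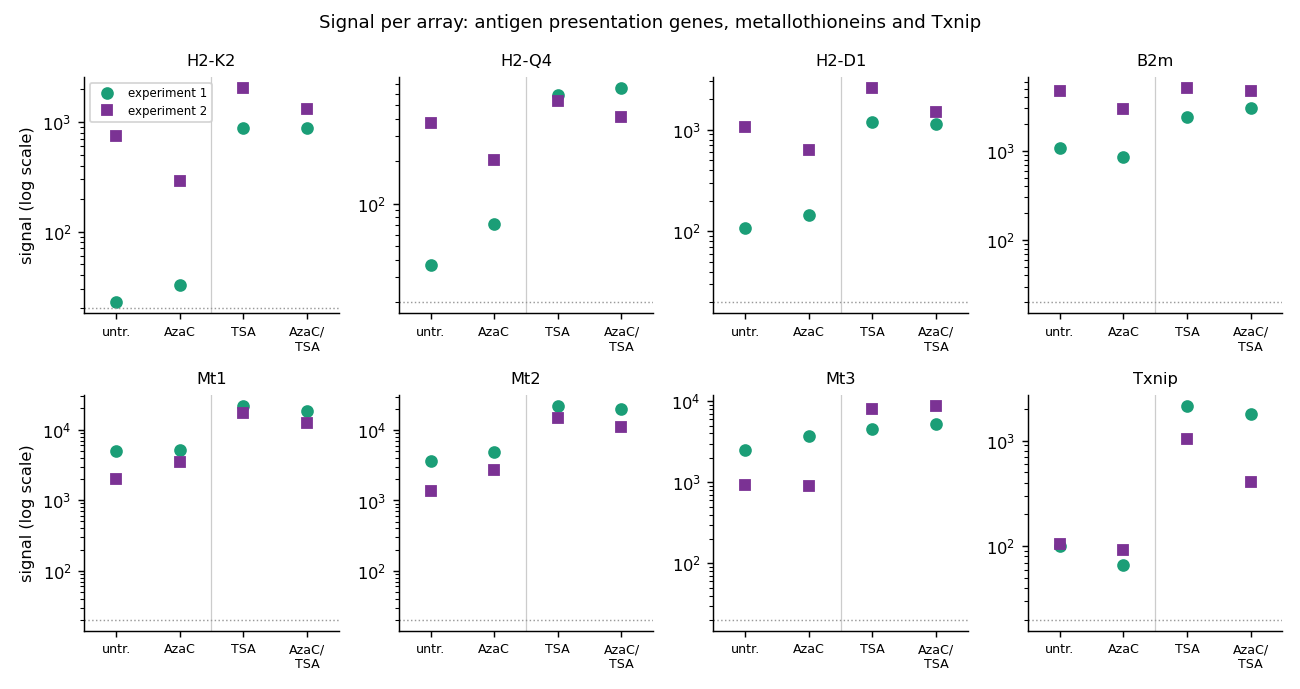
Signal on a log axis for each of the 8 arrays, by group, for 3 class I heavy-chain probe sets, B2m, the 3 metallothioneins and Txnip, with green circles for experiment 1, purple squares for experiment 2 and a dotted line at the floor signal of 20. For H2-K2, H2-Q4, H2-D1 and B2m the experiments are apart without TSA and close with it, for Txnip they are close without TSA and apart with it, and Mt3 crosses over.

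Over all 226 probe sets at an unadjusted p under 0.01, 48 passed for a difference between the experiments without TSA only, 64 with TSA only, 3 in both and 111 in neither. Of all 7987, 195 (2.44%) passed without TSA and 219 (2.74%) with it. The 226 were chosen by the gap between experiments with TSA minus the gap without it. Many calls in 1 comparison and few in both follow from that choice, so these counts only describe. The experiments were closer with TSA than without it for 101 of the 226 (44.7%), against 49.7% of all tested probe sets. H2-K2, H2-Q4, H2-D1 and B2m were among the 101.

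Gene lists were read by their counts and medians, beside those of all 6011 tested genes, whose median response was -0.05 in experiment 1 and 0.0038 in experiment 2. Of all 6011 genes, 528 (8.78%) rose and 506 (8.42%) fell in experiment 1, 524 (8.72%) rose and 532 (8.85%) fell in experiment 2, and 269 (4.48%) rose and 310 (5.16%) fell in both. Of 31 mitosis genes 28 fell in experiment 1 and 29 in experiment 2, 26 of them in both, with medians of -3.11 and -2.99. Of 32 DNA replication genes 24 fell in each experiment, 22 in both, with medians of -1.78 and -2.05. Stmn1, a microtubule destabiliser of the mitosis list, fell by 1.32 and 2.38 (adjusted p of the difference 0.2). In the replication list the helicase subunit Mcm7 fell by 1.62 and 2.62 and Mcm3, another subunit, by 3.65 and 2.69, so members with the larger fall in experiment 1 and in experiment 2 stood side by side.

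Of 26 neuronal genes 14 rose in experiment 1 and 12 in experiment 2, 11 in both, with medians of 1.35 and 1.09. Snap25 and the adhesion protein Ncam1 (2.87 and 1.88, with 1.46 and 2.35 on its second probe set) rose in both. Tubb3, the neuronal tubulin, fell by 1.20 in experiment 2, its response in experiment 1 was -0.43, and its second probe set read 1.95 and 0.41. Of 18 progenitor genes 2 rose and 1 fell in experiment 1, and 1 rose and 2 fell in experiment 2, shares of 5.56% and 11.1% that lie near those of all genes. Fabp7, the radial glia lipid-binding protein, fell by 1.42 and 2.36. The summed signal of the 21 progenitor genes on the array was lower with TSA in both experiments. It was 21109.5 and 21828.9 without and 13142.2 and 19875.4 with TSA in experiment 1. In experiment 2 it was 21575.7 and 18919.9 without and 9996.4 and 13941.6 with TSA. Fabp7 alone read 9310 and 10572.8 without and 2496.9 and 5499.4 with TSA in experiment 1. In experiment 2 Fabp7 read 10920.1 and 7830.1 without and 1062.9 and 3036 with TSA. The median response of the 18 tested progenitor genes was 0.28 and -0.06, so the lower sums do not describe the list as a whole. Of 19 immediate early genes 8 rose in experiment 1 and 9 in experiment 2, 6 in both, and Egr2, a zinc-finger factor of this list, rose by 3.86 and 2.57 (adjusted p of the difference 0.264).

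Among 28 stress and metallothionein genes, 11 rose in experiment 1 and 14 in experiment 2, 10 in both, with medians of 0.49 and 0.83. The difference was under an unadjusted p of 0.05 for 5 of them (17.9%, against 10.5% of all tested genes), Mt3 included. Hmox1, the haem oxygenase induced by oxidants, read 1097.3 (untreated), 895.0 (AzaC), 1744.7 (TSA) and 859.1 (AzaC/TSA) in experiment 1 and 546.8, 713.7, 2090.7 and 4589.1 in experiment 2. It rose by 2.31 in experiment 2, against 0.30 in experiment 1 where the groups overlapped. The chaperone gene Hsp90aa1 rose by 1.16 in experiment 2 and stood at 0.02 in experiment 1, and Sqstm1, an autophagy receptor, rose by 0.79 and 1.58. Their differences had adjusted p values of 0.333, 0.251 and 0.429.

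Of 16 cholesterol synthesis genes 9 fell in experiment 1 and 7 in experiment 2, all 7 among the 9, with medians of -1.12 and -0.80. Fdps, which makes farnesyl pyrophosphate, fell by 2.33 and 1.14, and Idi1, an isomerase that acts just before it, by 2.66 and 2.28. Of 20 glycolysis and hypoxia genes 8 fell and 2 rose in experiment 1 and 5 fell and 1 rose in experiment 2, with 4 falling in both. Pkm, pyruvate kinase, fell by 1.25 in experiment 1 and stood at -0.29 in experiment 2, and Aldoa, an aldolase, fell by 0.63 and stood at 0.34, with adjusted p values of the difference of 0.219 and 0.203. Of 26 matrix and adhesion genes 6 rose in experiment 1 and 5 in experiment 2, 2 in both, and 1 fell in each. Of 15 imprinted genes 3 rose (20%) and 2 fell (13.3%) in experiment 1, and 1, Igf2, rose (6.67%) and 2 fell in experiment 2, the last share of rises being near that of all genes. Of 24 chromatin enzymes 8 fell in experiment 1 and 9 in experiment 2, 8 in both. The 1 that rose in each was Hdac6, a mostly cytoplasmic deacetylase, by 1.64 and 0.75.

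**Figure D5:**
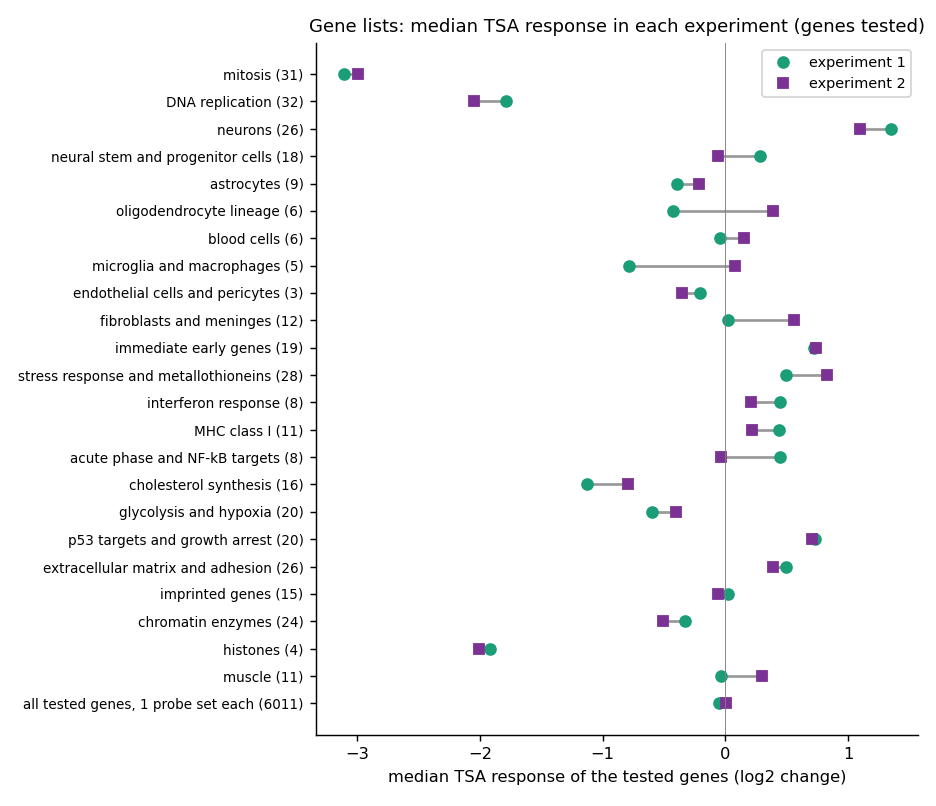
Median log2 TSA response of the tested genes of each of 23 gene lists in experiment 1 (green circles) and experiment 2 (purple squares), with the number of genes tested in parentheses and all 6011 tested genes in the last row. Mitosis, DNA replication and neuronal genes lie at like values in both experiments, and the lists whose symbols lie farthest apart, oligodendrocyte lineage and microglia, rest on 6 and 5 genes.

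The summed signals of markers of other cell types ranged widely, and some moved with the difference. The summed signal of the 17 microglia and macrophage markers on the array was 705.7 and 764.0 without and 649.9 and 523.5 with TSA in experiment 1, and 433.4 and 508.4 without and 992.0 and 923.2 with TSA in experiment 2, while Aif1 and Itgam were under the floor on all 8 arrays. Cd68, a lysosomal protein of that list, accounted for signals of 425.2 and 474.1 in the last pair and rose in both experiments, by 2.42 and 3.26. The summed signal of 13 astrocyte markers was 7700.2 and 11900.5 with TSA in experiment 1 against 4261.7 and 4949.6 in experiment 2, and 7036.2 to 9676.6 without TSA. Single members went both ways. With TSA, 1 of the 9 tested astrocyte genes passed as higher in experiment 2 (Aldoc, 3.04-fold) and 2 as lower (Apoe and Sparcl1). That was 33.3%, against 2.7% of all tested genes. The list median was 0.03, so these sums do not describe the astrocyte list as a whole. The sum of 16 muscle genes was 1783.9 and 1521.2 without TSA in experiment 1 and between 768.5 and 1116.1 on the other 6 arrays, led by Pygm, muscle glycogen phosphorylase, which fell in both experiments. The 12 endothelial markers summed to between 310.9 and 571.9 and the 17 fibroblast and meningeal markers to between 2528.9 and 4585.9. The sums of the 10 oligodendrocyte and 16 blood markers stayed between 276.8 and 603.8 on all arrays. Their part in the differences of single genes was not tested.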

How the data were processed

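RNA of neurosphere cells was measured on 8 Affymetrix-type arrays, 1 per group and experiment. The deposited table holds 1 linear intensity per probe set and array, and its values show that the authors had scaled every array to a 2%-trimmed mean of 200.1; the upstream software is not given in the sources used here. Of 12488 probe sets, 66 controls were left out, values under 10% of the trimmed mean (signal 20) were raised to it, and 7987 with at least 2 arrays at 25% of it (signal 50) were tested. Names came from the array annotation, updated through RefSeq, with 1 probe set per gene, the brightest, which gave 6011 genes.

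The model, run in limma 3.58.1 (R 4.3.3, lmFit, eBayes with an intensity trend) on log2 values, had 4 means (experiment by TSA, 2 arrays each) and an additive AzaC term, with 3 residual degrees of freedom. Tests were two-sided with Benjamini-Hochberg adjustment over the 7987 probe sets. A change is "at least" its value where arrays under the floor set the lower side.

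The members, lists and rules were chosen with earlier results of these data known. Named genes were the 10 of smallest p each way for the difference, the 10 largest shared responses each way, up to 5 per response class, up to 3 per gene list (23 lists, 352 tested genes) and a fixed panel of 20. Others given in the text were chosen after their values were seen. Arrays of the same experiment number deviated together from their group means, with r of 0.203 to 0.411 over the 6 pairs of groups, and the labels number the experiments, so the experiment is a block in the model above. On simulated data for the difference (7987 probe sets, 200 changed, 10 runs) the fit recovered 10.4% of changes of 1, 57.2% of 2, 85.4% of 3 and 95.2% of 4 log2 units, with 6.48% of calls false.

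Alternatives were quantile normalization, median centring, floors of 2.5% and 20%, an offset, other filters, no intensity trend, robust eBayes, other AzaC terms, each experiment alone and each array left out.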

Additional observations from a re-analysis of the deposited data

Results flagged for a closer look

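The TSA response differed between the experiments, by the test of the difference itself, for 6 probe sets. The difference (experiment 2 minus experiment 1, log2) was -3.35 for A2m, 2.51 for Mt3, -2.80 for Myo10, 3.87 for Akap12, at least 4.46 for probe set 97519_at and 2.15 for Ccnd1, with adjusted p values in limma of 0.00399, 0.00938, 0.0106, 0.0106, 0.0106 and 0.0441. Each had the same sign in the arrays without and with AzaC. A choice by small p favours such agreement, so it adds no separate support. In the simulated data, with 200 planted changes and independent noise, 6.48% of calls were false. That share depends on the planted changes and does not give the share of false calls among these 6. Changes of 2 log2 units were recovered in 57.2% of simulated cases. That rate too depends on the planted changes and does not give the recovery in these data. Further differences of that size may have been missed.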

How the results depend on the processing

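The alternatives were run for 40 named differences and 40 shared responses, and none turned a direction. Differences of genes named only through the gene lists or the panel, such as Dlk1 and B2m, were not rerun. Counts at an adjusted p of 0.05 in limma moved by over 1.5 times under these settings. Without the filter (12422 probe sets tested) the difference was called for 1 probe set, none of the 6, experiment 1 for 392, experiment 2 for 436, shared responses for 215 and the mean response for 1272. Without the intensity trend these were 0 (772 at an unadjusted p under 0.05), 757, 806 and 388 for the first 4. Without the AzaC term the difference was called for 2, both among the 6. Fitted on the arrays of 1 experiment alone, the TSA response in experiment 1 was called for 1963 and the TSA response in experiment 2 for 780. Without the replicate block the mean response was called for 1411 probe sets, all among the 2258, in place of 2258; no such fit exists for the differences, which are between the blocks. With 1 array left out at a time, which leaves a lone array assumed to vary like the others, counts ran from 0 to 7 for the difference, 277 to 1259 for experiment 1, 507 to 1181 for experiment 2, 208 to 582 for shared responses and 1337 to 1924 for the mean response. Of 20 alternatives each, A2m passed in 16, Mt3 in 14, Myo10, Akap12 and probe set 97519_at in 10 and Ccnd1 in 6. Of the named shared responses 779 alternative values kept their call and 21 lost it. The number of arrays, 2 per mean, limits the precision, and where signals lie near the floor sizes are bounds. The causes of these shifts were not tested.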
